A study of Homo sapiens with 6 samples.

Results

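The human mitochondrial genome carries 37 genes, and all 37 are rows of the deposited expression table, out of 33392 rows in all. They were taken by name, as every row whose symbol starts with MT-. They comprise 13 genes for subunits of the respiratory chain and the ATP synthase, 2 for ribosomal RNAs and 22 for transfer RNAs. The study sequenced RNA of HK-2, a cell line made by immortalising human proximal tubule epithelium, in 6 libraries labelled 48 h. Every library came from cells given TGF-β1, a cytokine known to drive fibrotic responses of tubule cells. The control group (3 libraries) had scramble siRNA, and the second group (3 libraries, here siDYRK2) had siRNA to DYRK2, a protein kinase whose role in kidney fibrosis the study asks about. No libraries without TGF-β1 were analysed here, so no value below measures the response to the cytokine. The model is limited to a single line. Nothing in the labels ties the replicates to separate cultures, and p-values therefore cover only the spread among these libraries, and that spread may be technical.

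Mitochondrial DNA is a small circle that is copied into RNA along almost its whole length from both strands. The heavy-strand transcript carries most of the genes, and the light-strand transcript carries MT-ND6 and a smaller set of tRNAs. Both are long precursors in which tRNAs sit between most mRNAs and rRNAs, and cutting out the tRNAs frees the other RNAs. Proximal tubule cells in the kidney are rich in mitochondria and rely on oxidative phosphorylation for transport.

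The annotation (GENCODE 29 on GRCh38) places 28 of the genes on the plus strand of chromosome M, which is the heavy-strand transcript, and 9 on the minus strand, which is the light-strand transcript. All 9 light-strand genes have more G than C in their RNA sequence, and 1 of the 28 heavy-strand genes, MT-TI, does. The 8 tRNA genes that differed between the groups (below) are shown here because the results turn on them. Sequences are from GENCODE 29, 5′ to 3′ along the RNA, with the anticodon in capitals. The anticodon is the middle of the 7-base loop that a script found on top of the best-paired stem, and it read the named amino acid in 20 of the 22 tRNAs, these 8 included. The first 3 are light-strand genes that were lower with siDYRK2, the next 2 light-strand genes that were higher, and the last 3 heavy-strand genes.
MT-TP (tRNA for proline, chrM:15956-16023, minus strand): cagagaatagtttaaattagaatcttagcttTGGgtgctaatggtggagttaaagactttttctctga
MT-TE (glutamate, chrM:14674-14742, minus strand): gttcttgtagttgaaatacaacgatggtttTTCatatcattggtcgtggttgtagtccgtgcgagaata
MT-TY (tyrosine, chrM:5826-5891, minus strand): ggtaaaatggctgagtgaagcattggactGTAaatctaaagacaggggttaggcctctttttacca
MT-TS1 (serine, chrM:7446-7514, minus strand): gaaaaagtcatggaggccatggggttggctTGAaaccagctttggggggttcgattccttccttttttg
MT-TQ (glutamine, chrM:4329-4400, minus strand): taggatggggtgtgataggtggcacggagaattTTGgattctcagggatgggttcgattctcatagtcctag
MT-TI (isoleucine, chrM:4263-4331, plus strand): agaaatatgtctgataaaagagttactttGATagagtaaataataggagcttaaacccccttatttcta
MT-TV (valine, chrM:1602-1670, plus strand): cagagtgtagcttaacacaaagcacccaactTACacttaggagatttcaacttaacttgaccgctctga
MT-TK (lysine, chrM:8295-8364, plus strand): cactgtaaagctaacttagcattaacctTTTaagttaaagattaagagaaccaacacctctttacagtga

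These genes lie edge to edge, which bears on how their reads can be told apart. MT-TI and MT-TQ run towards each other and share 3 bases at their 3′ ends, and MT-TS1, on the opposite strand, ends on the base next to the end of MT-CO1. The mature MT-CO1 mRNA is known to end with a stretch antisense to MT-TS1. Whether the authors' counting used strand is not given in the sources used here, so the reads of a mitochondrial gene and of RNA from the opposite strand cannot be told apart. The reading frames of MT-ATP8 and MT-ATP6 share 46 bases, and those of MT-ND4L and MT-ND4 share 7. The MT-ATP8 and MT-ATP6 overlap is shown because any read inside it belongs to both genes, with the start codon of MT-ATP6 in capitals.
MT-ATP8 and MT-ATP6 overlap (chrM:8527-8572, plus strand): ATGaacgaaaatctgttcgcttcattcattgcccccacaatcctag

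The values are FPKM, fragment counts scaled by transcript length and by the size of the library, so levels can be compared between genes per length. The depth of the libraries is unknown, since the values did not resolve into whole fragments. The siRNA target was lower in its group, as DYRK2 stood at 25.1% of its scramble mean in the siDYRK2 libraries (log2 fold change −1.69, limma adjusted p = 2.0e-06). Of 10 measured proximal tubule markers only GATM reached a mean of 0.5 FPKM, and the transporters SLC34A1 and SLC5A2 and the factors HNF4A and PAX2 were at 0.11 FPKM or less in every library, so these defining markers were near 0. The epithelial keratins KRT8 and KRT18 were expressed, at 48.2 and 123 FPKM in the scramble group. Of 3 measured lung epithelium markers, the lung and thyroid factor NKX2-1 was highest, at 26.5 FPKM in the scramble group. NKX2-1 fell to 23.4 FPKM with siDYRK2 (log2 fold change −0.17, limma adjusted p = 0.0081). SFTPB was at 3.65 and 4.03 FPKM (0.12, limma adjusted p = 0.56), and SFTPC was at 0.06 FPKM or less in every library. Of the 4 epithelial markers KRT18 (to 87.3 FPKM) and CDH1 (from 2.97 to 1.17 FPKM) fell with siDYRK2, while KRT8 (49.4 FPKM) and EPCAM (10.0 and 8.70 FPKM) did not pass the test. The list summed to 181 to 188 FPKM in the scramble group and 143 to 152 FPKM with siDYRK2, mostly through KRT18, and its part in the results below was not tested. The 3 fibroblast markers summed to no more than 0.69 FPKM and the 3 endothelial markers to no more than 0.07 FPKM in any library. Of 3 listed immune markers only CD68 had a row, and it was expressed, at 13.3 and 16.7 FPKM (log2 fold change 0.35, limma adjusted p = 0.12).

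Mitochondrial transcripts were among the most abundant RNAs of both groups. Of the 50 rows with the highest mean FPKM 21 were mitochondrial, and 18 of the 37 genes had a mean above 1000 FPKM. MT-CO1, the catalytic core of cytochrome c oxidase, had the highest mean (7818 FPKM over the 6 libraries) and MT-TW, the tRNA for tryptophan, the lowest (15.1 FPKM). The 13 protein-coding genes spanned 438 FPKM (MT-ND3, a small complex I subunit) to 7818 FPKM, with a median of 4892 FPKM. The ribosomal RNAs stood apart from each other, MT-RNR2 (16S) at 4175 FPKM and MT-RNR1 (12S) at 579 FPKM. The tRNA genes had a median of 111 FPKM, with 6 of them far above it. These 6 were MT-TY (2354 FPKM), MT-TN (2264), MT-TC (1988), MT-TA (1418), MT-TL1 (1232) and MT-TS1 (784), of which 5 are light-strand genes. When the genes were ordered by mean, the ranges over the 6 libraries overlapped for 25 of the 36 neighbouring pairs, so much of the order is within the spread. The library preparation step that selects RNA is not given in the sources used here, and tRNA genes of 59 to 75 bases are short for this assay, so differences in level between classes of RNA may not follow their abundance in the cell.

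**Figure D1:**
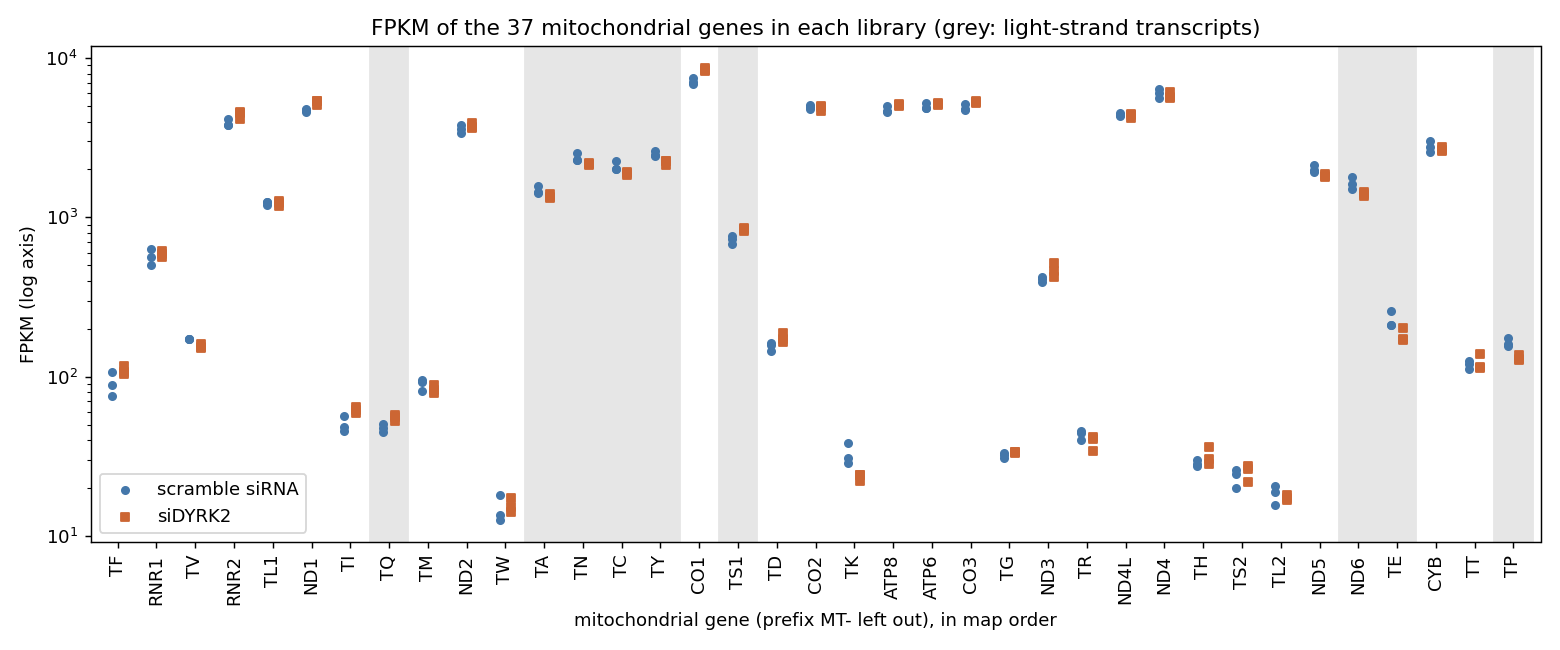
FPKM on a log axis (vertical) of each of the 37 mitochondrial genes in map order (horizontal), with 1 point per library, circles for scramble and squares for siDYRK2, and light-strand genes shaded grey. MT-CO1 is highest, the run MT-TA, MT-TN, MT-TC and MT-TY lies above 1000 FPKM, and the groups differ by far less than the genes do.

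The mitochondrial share of all FPKM was slightly higher with siDYRK2. The share was 27.5%, 26.3% and 27.1% in the scramble libraries and 27.8%, 27.6% and 27.6% in the siDYRK2 libraries. The siDYRK2 values were all above the scramble values, but the highest scramble library lay just under the lowest siDYRK2 library. The difference of 0.684 percentage points (26.98% ± 0.590 against 27.67% ± 0.126, SD, n = 3) had an exact two-sided permutation p of 0.1, the smallest that 3 against 3 libraries allow, and 0.2 after adjustment over 4 such shares. Without scramble replicate 2 the difference was 0.367 points. In absolute terms the mitochondrial FPKM summed to 66482 to 70266 in the scramble group and to 70075 to 70998 with siDYRK2.

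This share depends strongly on the scale. Weighting each row by its exonic length, which brings the values nearer to shares of sequenced fragments, put the mitochondrial share at 6.22% to 6.64% in the scramble group and at 6.77% to 6.82% with siDYRK2. The direction was the same, and the exact p was again 0.1. Within the mitochondrial FPKM, protein-coding genes took 75.3% to 77.5% in the scramble group and 77.0% to 77.7% with siDYRK2 (exact two-sided permutation p = 0.3). The direction of this difference reversed, from 0.958 to −0.580 percentage points, when rows were weighted by length. The rRNA part was 6.55% ± 0.410 and 7.12% ± 0.361 (SD, n = 3; exact permutation p = 0.2). Both of these parts overlapped between the groups.

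The light-strand genes made up less of the mitochondrial FPKM with siDYRK2. Their part was 15.9%, 16.2% and 17.03% in the scramble libraries and 14.5%, 14.3% and 14.7% in the siDYRK2 libraries. The groups were separated by more than the whole range of either, as the nearest libraries lay at 15.9% and 14.7%. The difference was −1.87 percentage points (16.39% ± 0.574 against 14.52% ± 0.183, SD, n = 3), with an exact two-sided permutation p of 0.1, the smallest possible, and 0.2 adjusted over the 4 shares. When the 22 tRNA rows were removed, MT-ND6 was the sole light-strand gene left, and its part was 2.72% to 3.05% against 2.29% to 2.43%. Weighted by length, the light-strand part was 2.64% to 2.77% against 2.25% to 2.34%. In each of these the groups did not overlap. Without MT-TS1 and MT-TQ, the light-strand genes that rose, the part was 14.8% to 15.9% against 13.02% to 13.4%. That setting was chosen after seeing the data, and leaving out the genes that rose can only widen the difference, so it is no further check.

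**Figure D2:**
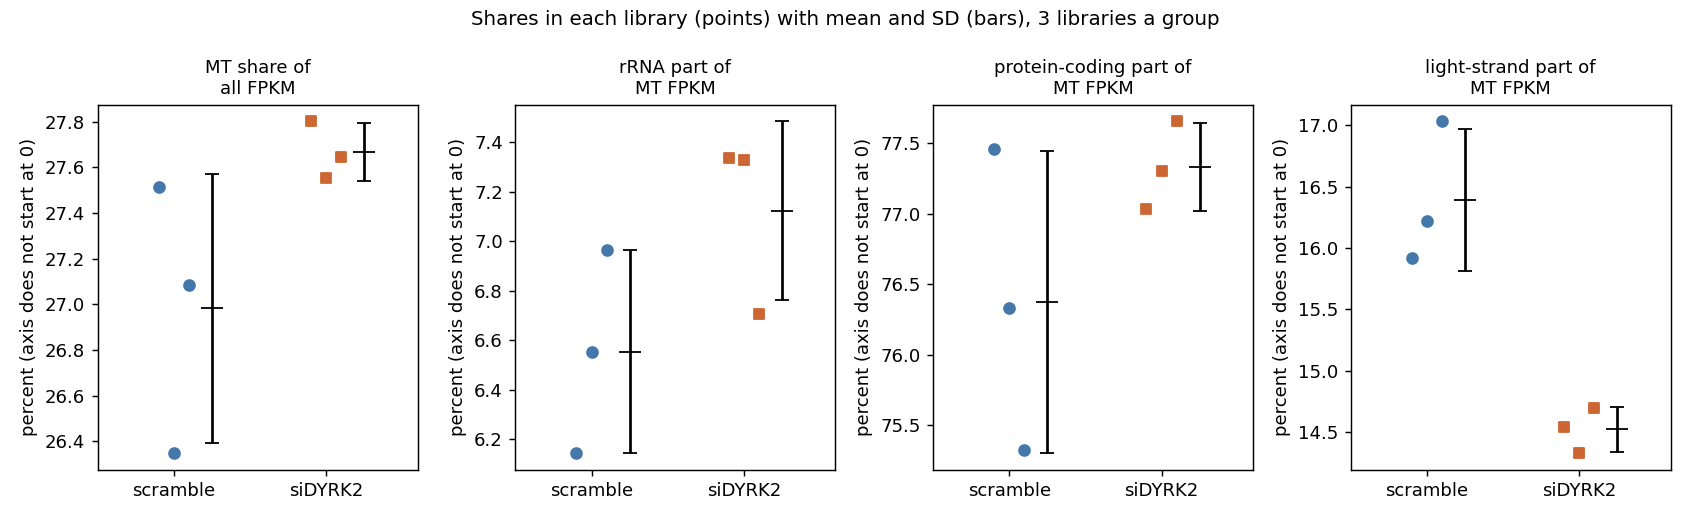
Share of all FPKM taken by mitochondrial genes, and the rRNA, protein-coding and light-strand parts of the mitochondrial FPKM, in percent (vertical, axes not starting at 0) for the 2 groups (horizontal); points are libraries and bars are the mean ± SD of 3. The light-strand panel shows the widest gap relative to its spread, with all scramble libraries at or above 15.9% and all siDYRK2 libraries at or below 14.7%.

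Gene by gene, the differences were small and went both ways. All 37 genes passed the filter of a mean of 0.5 FPKM, and 6 were called higher and 6 lower by limma at an adjusted p under 0.05. Over all 15121 tested genes 20.4% were called higher and 17.9% lower, together 38.3%, so the 12 calls among 37 genes are near the background. Of the 198 other genes that averaged 100 FPKM or more, 62.1% were called (24.2% higher and 37.9% lower), so the mitochondrial count is also below that of nuclear genes of high level. The median log2 fold change of siDYRK2 over scramble, computed after adding 0.5 FPKM to each value, which understates changes of low genes, was 0.03 over the 37 genes and 0.01 over all tested genes. The fold changes ran from −0.45 (MT-TK) to 0.31 (MT-TI). Values of the groups did not overlap for 9 genes that were higher and 10 that were lower, while 51.7% of all tested genes, and 71.2% of the 198 of high level, did not overlap. With no filter on low values (32812 rows tested), MT-TQ, MT-TP, MT-TV and MT-TK kept their call and the other 8 lost it. Without siDYRK2 replicate 2 the calls fell to 3 higher and 3 lower, and without scramble replicate 2 to 2 higher, with 7 lower. In bulk RNA a lower level in every cell and fewer cells with the transcript cannot be told apart.

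**Figure D3:**
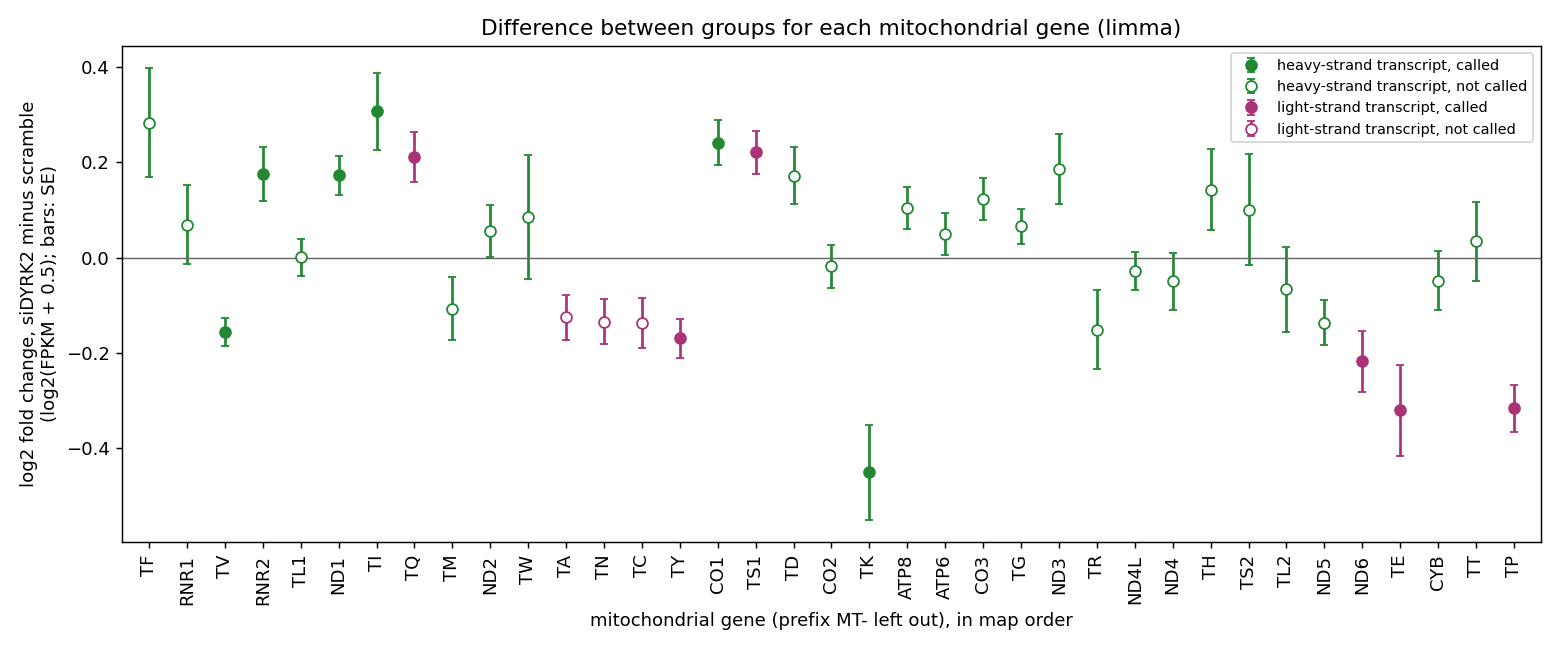
Log2 fold change of each mitochondrial gene (vertical, siDYRK2 minus scramble on log2(FPKM + 0.5), bars are the SE from limma) in map order (horizontal), coloured by strand, with filled points for genes past the threshold. Most light-strand genes lie below 0, except MT-TQ and MT-TS1, and the called genes lie between −0.45 and 0.31.

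In each of the 9 light-strand genes the scramble and siDYRK2 libraries did not overlap, 7 being lower and 2 higher with siDYRK2. Of all tested genes 24.3% were lower without overlap and 27.4% higher, and of the 198 of high level 41.9% were lower and 29.3% higher. By limma 4 of the 9 were called lower and 2 higher, beside 17.9% lower and 20.4% higher of all tested genes. Of the 198 of high level 37.9% were called lower and 24.2% higher. At an unadjusted p under 0.05, 7 of the 9 were lower, beside 3366 of the 15121 tested genes. Among the 9, the count called lower was 2 without siDYRK2 replicate 1 and 1 without siDYRK2 replicate 2. Their median log2 fold change was −0.14, against 0.06 for the 28 heavy-strand genes. The heavy-strand genes had 4 called higher and 2 called lower, and 18 of 28 overlapped between the groups.

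MT-ND6, the single light-strand protein-coding gene, encodes a membrane subunit of complex I. It stood at 1791, 1500.4 and 1614 FPKM in the scramble libraries and at 1369, 1396 and 1444 FPKM with siDYRK2. All 3 siDYRK2 values lay below the lowest scramble value, and the log2 fold change was −0.22 (SE 0.0641, limma adjusted p = 0.033). This call was lost without scramble replicate 3 (limma adjusted p = 0.062) and without siDYRK2 replicates 1, 2 and 3 in turn (limma adjusted p = 0.102, 0.089 and 0.052). Under quantile normalization the log2 fold change of MT-ND6 was −0.07 (limma adjusted p = 0.21). MT-TE, the second gene of the light-strand transcript, stood at 257, 213 and 212 FPKM and at 172, 170.5 and 203 FPKM with siDYRK2. Its log2 fold change was −0.32 (SE 0.0948, limma adjusted p = 0.033), and scramble replicate 1 was its highest library. The call on MT-TE was lost without scramble replicate 1 (limma adjusted p = 0.068), without siDYRK2 replicates 1 and 2 (limma adjusted p = 0.099 and 0.102), and under quantile normalization (limma adjusted p = 0.061).

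MT-TP, the first gene of the light-strand transcript, had the most stable of these differences. It stood at 174, 156 and 159 FPKM in the scramble libraries and at 128, 127 and 137 FPKM with siDYRK2, which is 19.8% lower. The log2 fold change was −0.32 (SE 0.0491, limma adjusted p = 0.0024), and the call held under all 18 alternative analyses. MT-TY, MT-TC, MT-TN and MT-TA, the tRNAs for tyrosine, cysteine, asparagine and alanine, form one block of consecutive light-strand genes. Summed over this block, the FPKM was 8152, 8182 and 8947 in the scramble libraries and 7756, 7432 and 7676 with siDYRK2. MT-TY was called (2451, 2431 and 2596 FPKM against 2246, 2147 and 2254 FPKM, log2 fold change −0.17, limma adjusted p = 0.015), a call lost without siDYRK2 replicate 2 (limma adjusted p = 0.067) and under quantile normalization (log2 fold change −0.07, limma adjusted p = 0.35). The other 3 had log2 fold changes of −0.14 (MT-TC), −0.13 (MT-TN) and −0.13 (MT-TA), with limma adjusted p from 0.061 to 0.081, and did not pass the threshold. MT-TN passed it without scramble replicate 1 (limma adjusted p = 0.046). Under quantile normalization, MT-TC and MT-TA had the opposite sign (0.06 and 0.03).

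Read along the light-strand transcript, the percent differences were −19.8% (MT-TP), −20.0% (MT-TE), −14.2% (MT-ND6), 16.5% (MT-TS1), −11.1% (MT-TY), −9.17% (MT-TC), −9.00% (MT-TN), −8.41% (MT-TA) and 15.9% (MT-TQ). Apart from the 2 genes that were higher, MT-TP, MT-TE and MT-ND6 near the start had larger decreases than the block from MT-TY to MT-TA. This order was noticed after the values were seen, and differences between neighbours were not tested. The libraries that were highest within the scramble group also changed along the transcript. Scramble replicate 1 was highest for MT-TP, MT-TE and MT-ND6, and scramble replicate 3 was highest for the block from MT-TY to MT-TA.

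**Figure D4:**
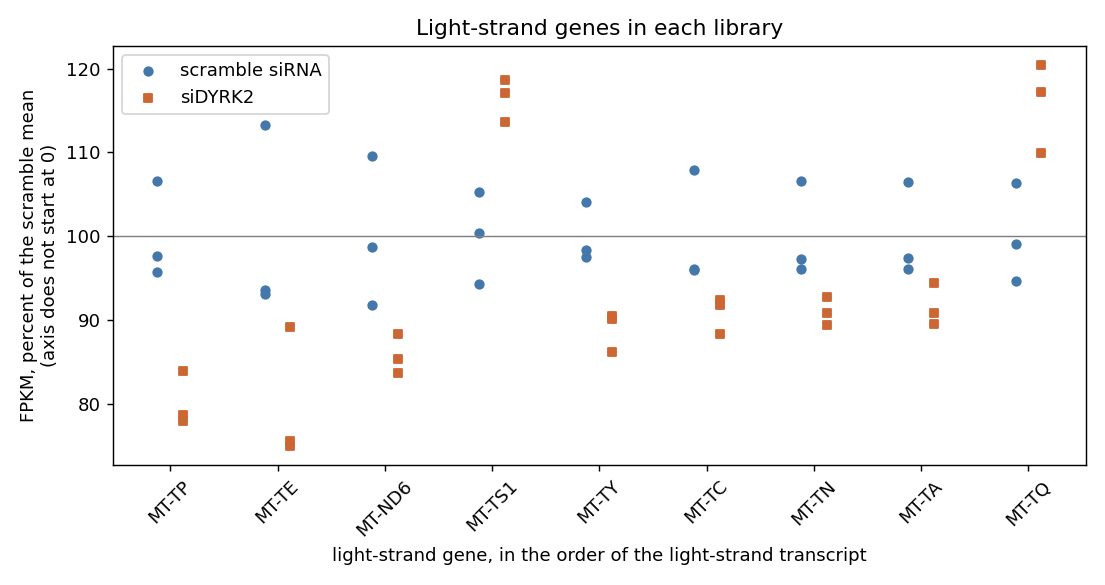
FPKM of the 9 light-strand genes in each library as a percent of the scramble mean (vertical, axis not starting at 0), in the order of the light-strand transcript (horizontal), with circles for scramble and squares for siDYRK2. All siDYRK2 points lie below the scramble points for 7 genes and above them for MT-TS1 and MT-TQ.

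The exceptions, MT-TS1 and MT-TQ, are given here beside their heavy-strand neighbours. MT-TS1 rose from 763, 683 and 728 FPKM to 849, 859.8 and 823 FPKM (log2 fold change 0.22, SE 0.0453, limma adjusted p = 0.0077). MT-CO1, whose end abuts it, rose from 7553, 7040 and 6911 FPKM to 8612, 8485 and 8304 FPKM (log2 fold change 0.24, SE 0.0478, limma adjusted p = 0.0067). The ratio of MT-TS1 to MT-CO1 was 0.101 ± 0.00413 in the scramble group and 0.0997 ± 0.00145 (SD, n = 3) with siDYRK2, so the 2 kept nearly the same proportion in all libraries. MT-TQ rose from 50.8, 47.3 and 45.2 FPKM to 52.5, 57.5 and 55.95 FPKM (log2 fold change 0.21, limma adjusted p = 0.017). Its overlapping neighbour MT-TI rose from 56.9, 45.3 and 48.6 FPKM to 59.5, 64.8 and 61.9 FPKM (log2 fold change 0.31, limma adjusted p = 0.021). Other neighbours went the opposite way or were not called: MT-TM, on the other side of MT-TQ, had a log2 fold change of −0.11 (limma adjusted p = 0.24), MT-TD beside MT-TS1 one of 0.17 (0.058), and MT-TY, which lies before MT-CO1 on the other strand, fell. The part of shared or opposite-strand reads in these values was not tested. The MT-TQ call was lost without scramble replicate 2 (limma adjusted p = 0.056) and without siDYRK2 replicates 2 and 3 (0.059 and 0.0505), and the MT-TI call without scramble replicates 2 and 3 (0.055 and 0.058) and siDYRK2 replicates 2 and 3 (0.068 and 0.054).

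Among the 12 heavy-strand protein-coding genes 2 rose, beside 20.4% of all tested genes, and 10 did not pass the test. By limma 0 were called lower, and 1 was lower at an unadjusted p under 0.05. Besides MT-CO1, the riser was MT-ND1, a core subunit of complex I, from 4791, 4698 and 4616 FPKM to 5401, 5391 and 5109 FPKM. Its groups did not overlap, and the log2 fold change was 0.17 (SE 0.0407, limma adjusted p = 0.014), lost without scramble replicate 2 (limma adjusted p = 0.053) and without siDYRK2 replicates 1 and 2 (0.074 and 0.066). Quantile normalization gave MT-ND1 a log2 fold change of 0.07 (limma adjusted p = 0.038) and set the difference of MT-CO1 to 0, since it gives the top row of each library the same value.

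Subunits of the same complex differed in their calls. In complex IV, MT-CO1 rose, MT-CO3 stood at 4891 and 5324 FPKM (log2 fold change 0.12, limma adjusted p = 0.067) and MT-CO2 at 4923 and 4862 FPKM (−0.02, limma adjusted p = 0.78). The ratio of MT-CO1 to MT-CO2 was 1.53, 1.47 and 1.37 in the scramble libraries and 1.75, 1.83 and 1.65 with siDYRK2, with no overlap. In complex I, MT-ND1 rose and MT-ND6 fell, while MT-ND2, MT-ND3, MT-ND4, MT-ND4L and MT-ND5 did not pass the test. Of these 5, MT-ND5, whose end abuts that of MT-ND6 on the other strand, was the one whose groups did not overlap. It stood at 2143, 1919 and 1984 FPKM and at 1826, 1867 and 1802 FPKM with siDYRK2 (log2 fold change −0.14, limma adjusted p = 0.056). MT-ND5 passed the threshold without scramble replicate 2 (limma adjusted p = 0.046), MT-ND3 without siDYRK2 replicate 2 (0.026) and MT-CO3 without scramble replicate 1 (0.020).

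MT-CYB, the cytochrome b subunit of complex III, stood at 2781 ± 230.4 FPKM in the scramble group and at 2684 ± 76.4 FPKM with siDYRK2 (SD, n = 3), a log2 fold change of −0.05 (limma adjusted p = 0.58). The ATP synthase subunits MT-ATP6 and MT-ATP8 are read from one mRNA. MT-ATP6 stood at 4994 and 5164 FPKM (log2 fold change 0.05, limma adjusted p = 0.41) and MT-ATP8 at 4742 and 5091 FPKM (0.10, limma adjusted p = 0.11). MT-ATP8 passed the threshold without scramble replicate 1 (limma adjusted p = 0.029). The ratio of MT-ATP8 to MT-ATP6 was 0.939 to 0.956 in the scramble group and 0.970 to 0.999 with siDYRK2. MT-ND4L and MT-ND4, also on one mRNA, had a ratio of 0.735 ± 0.0418 and 0.746 ± 0.0421 (SD, n = 3), which differed by less than the spread.

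Of the ribosomal RNAs, MT-RNR2 rose from 3817, 3795 and 4150.4 FPKM to 4592, 4544 and 4151 FPKM. The groups touch, because scramble replicate 3 and siDYRK2 replicate 3 had nearly the same level. The log2 fold change was 0.18 (SE 0.0568, limma adjusted p = 0.045). The call was lost without scramble replicates 1 and 2 (limma adjusted p = 0.107 and 0.140), without siDYRK2 replicates 1 and 2 (0.154 and 0.141), and under quantile normalization (log2 fold change 0.08, limma adjusted p = 0.090). MT-RNR1 stood at 566 ± 68.1 FPKM and, with siDYRK2, at 591 ± 24.5 FPKM (SD, n = 3), groups that overlapped with a log2 fold change of 0.07 (limma adjusted p = 0.55).

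The 14 heavy-strand tRNAs had 1 call higher, MT-TI, and 2 lower, beside 20.4% higher and 17.9% lower of all tested genes. MT-TV, which lies between the rRNA genes, stood at 171, 173 and 173 FPKM in the scramble libraries and at 151, 154 and 159 FPKM with siDYRK2. Its coefficient of variation in the scramble group was 0.593%, the smallest of the 37 genes, and the log2 fold change was −0.16 (SE 0.0297, limma adjusted p = 0.0055). MT-TV was thus lower while its neighbour MT-RNR2 was higher. MT-TK, which lies between MT-CO2 and MT-ATP8, stood at 38.1, 30.8 and 28.6 FPKM and at 22.3, 24.15 and 24.0 FPKM with siDYRK2. It had the lowest log2 fold change of the 37 genes, −0.45 (SE 0.0987, limma adjusted p = 0.010). The calls on MT-TV and MT-TK held under all 18 alternatives.

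The other 11 heavy-strand tRNAs did not pass the test. MT-TL1, the tRNA for leucine that follows MT-RNR2, stood at 1231 ± 23.1 FPKM and, with siDYRK2, at 1232 ± 46.9 FPKM (SD, n = 3), with a limma adjusted p of 0.995. As MT-ND1 next to it rose, the ratio of MT-TL1 to MT-ND1 was 0.260, 0.264 and 0.261 in the scramble libraries and 0.236, 0.230 and 0.231 with siDYRK2. MT-TF, the first gene of the heavy-strand transcript, stood at 76.0, 88.7 and 107 FPKM and at 116, 104 and 108 FPKM (log2 fold change 0.28, limma adjusted p = 0.091). It passed the threshold without scramble replicate 3 (limma adjusted p = 0.0086). MT-TD, between MT-TS1 and MT-CO2, was at 155 ± 9.30 and 174 ± 11.4 FPKM (SD, n = 3) with no overlap (log2 fold change 0.17, limma adjusted p = 0.058), and passed without siDYRK2 replicate 1 (0.047). The remaining 8, MT-TM, MT-TW, MT-TG, MT-TR, MT-TH, MT-TS2, MT-TL2 and MT-TT, had log2 fold changes from −0.15 (MT-TR) to 0.14 (MT-TH) and all overlapped between the groups. Of these MT-TL2 passed the threshold without scramble replicate 3 (log2 fold change −0.17, limma adjusted p = 0.045).

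The coefficient of variation over 3 libraries had a median over the 37 genes of 5.75% in the scramble group and 3.98% with siDYRK2. The genes share the same libraries, so this is a description of those libraries, and the difference was not tested. In the scramble group 21 of the genes were highest in replicate 1, 15 in replicate 3 and 1 in replicate 2. The medians of all tested genes were 2.37 to 2.40 on the log2 scale in the 6 libraries.

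In a list of 22 genes of mitochondrial DNA transcription and maintenance 13 rose, beside 20.4% of all tested genes, with a median log2 fold change of 0.16. By limma 0 were called lower, and 0 were lower at an unadjusted p under 0.05. POLRMT, the mitochondrial RNA polymerase, rose from 14.7, 15.5 and 15.0 FPKM to 19.9, 19.8 and 20.4 FPKM (log2 fold change 0.40, SE 0.0343, limma adjusted p = 1.8e-04). Its groups were far apart relative to their spread. TFAM, which packages the genome and opens its promoters, rose 1.14-fold (log2 fold change 0.18, limma adjusted p = 0.014, or 0.072 when scaled to the mitochondrial sum), and the elongation factor TEFM 1.20-fold (0.23, limma adjusted p = 0.020). The promoter-melting factor TFB2M rose 1.11-fold (0.14, limma adjusted p = 0.029), a call lost without scramble replicates 1 and 2 (0.085 and 0.086) and siDYRK2 replicates 1 and 2 (0.087 and 0.091). The TEFM call was lost when scaled to the mitochondrial sum (limma adjusted p = 0.058), and without scramble replicate 3 (0.059) or siDYRK2 replicates 1 and 2 (0.058 and 0.063). Scaling to the mitochondrial sum, also given below for LRPPRC and ESRRA, was chosen after seeing the data. It moved the median log2 fold change of all tested genes from 0.0086 to −0.027. POLG, the replicative polymerase, rose 1.23-fold and the exonuclease MGME1 1.20-fold, with limma adjusted p of 0.0015 and 0.0011.

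In a list of 10 genes drawn up for RNA stability and decay 7 rose, beside 20.4% of all tested genes, with a median log2 fold change of 0.19. By limma 0 were called lower, with 0 lower at an unadjusted p under 0.05. The 7 include PPA2, which encodes an inorganic pyrophosphatase and is not an RNA decay factor. Its call (log2 fold change 0.20, limma adjusted p = 0.030) was lost under 7 of the 18 alternatives. PNPT1 and SUPV3L1 encode the exonuclease and the helicase of the mitochondrial degradosome. PNPT1 rose from 15.2, 15.3 and 14.85 FPKM to 18.04, 19.55 and 19.02 FPKM (log2 fold change 0.31, limma adjusted p = 9.8e-04), and SUPV3L1 rose 1.16-fold (0.20, limma adjusted p = 0.0040). LRPPRC and SLIRP form the complex that stabilises mitochondrial mRNAs. SLIRP rose 1.26-fold (0.30, limma adjusted p = 0.014) and LRPPRC 1.14-fold (0.18, limma adjusted p = 0.018), the latter call being lost when scaled to the mitochondrial sum (0.074) and without siDYRK2 replicates 2 and 3 (0.057 and 0.054). Of 25 genes of RNA processing and modification 8 rose and 1 fell, beside 20.4% and 17.9% of all tested genes. ELAC2, which cuts tRNA 3′ ends, rose from 18.8, 17.2 and 16.9 FPKM to 21.3, 21.5 and 23.5 FPKM (log2 fold change 0.32, limma adjusted p = 0.0038). TRMT10C, a subunit of the RNase P that cuts tRNA 5′ ends, was at 9.91 and 10.6 FPKM (0.09, limma adjusted p = 0.14). PRORP, another subunit of it, rose from 5.30, 5.36 and 8.01 FPKM to 8.35, 10.3 and 9.78 FPKM (0.59, limma adjusted p = 0.021). The PRORP call was lost with no filter (limma adjusted p = 0.065), and without scramble replicates 1 and 2 (0.063 and 0.068) or siDYRK2 replicates 2 and 3 (0.069 and 0.062).

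Sequences in the nuclear genome that copy mitochondrial genes can share their reads. The table has 54 rows for such copies, of which 9 were tested, and their FPKM summed to 1332 to 1427 in the scramble group and 1401 to 1453 with siDYRK2. The highest were MTATP6P1 (885 and 912 FPKM), MTND2P28 (346 and 363 FPKM) and MTCO1P12 (124 and 137 FPKM). MTCO1P12 was the 1 copy called higher (log2 fold change 0.15, limma adjusted p = 0.0086), as MT-CO1 was. Of the tested copies limma called 0 lower, with 1 lower at an unadjusted p under 0.05. How the authors assigned reads that fit both places is not given in the sources used here, so the levels of the mitochondrial genes and these copies are uncertain by their shared part.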

How the data were processed

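The 6 libraries were Illumina RNA sequencing of HK-2 cells (labels' protocols). HISAT2, StringTie and the build GRCh38 are named in the submitters' processing notes, with no version. The deposited values are FPKM computed by the authors, per the file headers, in 6 columns matched to the labels by library name; 0 other value columns were present. Whole fragments were not recovered: 24.8% to 26.1% of low values, times exonic length, lay within 0.1 of a whole multiple of a step estimated for the library, against 20% by chance, which leaves depth unknown and allows no counting interval. The 15121 genes whose mean reached 0.5 FPKM entered limma 3.58.1 (R 4.3.3) as log2(FPKM + 0.5) (mean-variance trend, no block, Benjamini-Hochberg over all of them at 0.05). Shares were compared by exact two-sided permutation in Python 3.11.15 with scipy 1.17.1. Exonic lengths and coordinates are from GENCODE 29 (30946 rows matched). Limma was run on simulated data with independent noise for each gene and far fewer changed genes than were called here. That run does not cover deviations shared by the genes of a library. The alternatives covered scaling, pseudocounts, filters, variance settings, the replicate block and each library left out. The genes and lists were chosen with earlier results of these data known. All 37 genes are named. Nuclear genes could be named if on a fixed list of names, among the 6 smallest adjusted p-values of their pathway list, or among the 6 nuclear copies of highest mean.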

Additional observations from a re-analysis of the deposited data

How the results depend on the processing

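Of the 12 called mitochondrial genes, MT-TP, MT-TV and MT-TK kept their call under all 18 alternatives and none changed sign. Without the filter 1 gene was called higher and 3 lower, 1 of them on the light strand; this setting tests 32812 rows. Scaling to the mitochondrial sum, chosen after seeing the data, gave 4 higher and 10 lower, 7 on the light strand, and a median log2 fold change of −0.0067. Light-strand genes called lower numbered 1 under quantile normalization and 2 without the mean-variance trend. Deviations of same-numbered libraries correlated at −0.077, 0.024 and −0.088, and those of differently numbered libraries at −0.040 to 0.110. These values show no sign of pairing by replicate number, but 3 libraries a group cannot exclude it. With the replicate block 6 genes were called higher and 4 lower, 2 on the light strand. The calls on MT-RNR2, MT-ND6 and MT-TE were then lost (limma adjusted p = 0.106, 0.055 and 0.061) and MT-ND3 was gained (0.031). With each library left out in turn, 2 to 7 were higher, 3 to 7 lower, 1 to 4 lower on the light strand, and the median was −0.0090 to 0.030. Over all tested genes the share of calls that were higher was 53.2%, and 42.5% when scaled to the mitochondrial sum. The protein-coding part reversed with length weighting (−0.580 points) and without tRNA rows (−0.529), and ranged from 0.434 to 1.502 points with single libraries left out. Signs reversed for genes that were not called, and the cause was not tested. With quantile normalization these were MT-TA (0.029), MT-TC (0.058), MT-ATP6 (−0.035), MT-ND5 (0.089) and MT-CYB (0.074). They ranked from 4 (MT-ATP6) to 19 (MT-TA) of all rows by mean FPKM. Quantile normalization gives each rank the same value in every library, so differences among these highest rows follow changes of rank. It set the log2 fold changes of MT-ND2, MT-TL1 and MT-TN to 0. MT-RNR2 (rank 9), MT-TY (12) and MT-ND6 (18) also lie in this range. With scaling to the mitochondrial sum signs reversed for MT-TL1 (−0.041), MT-TT (−0.0067) and MTCO3P12 (−0.025), and on the TPM scale for MT-TL1 (−0.0049). With single libraries left out the log2 fold changes ranged from −0.015 to 0.158 (MT-RNR1), −0.025 to 0.030 (MT-TL1), −0.010 to 0.234 (MT-TW), −0.042 to 0.014 (MT-CO2), −0.0090 to 0.202 (MT-TS2), −0.171 to 0.015 (MT-TL2), −0.105 to 0.014 (MT-CYB), −0.059 to 0.084 (MT-TT) and −0.075 to 0.077 (MTCO3P12). Depth is unknown, which limits what can be said of the lowest tRNA genes.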

Other observations

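Among 15 factors of mitochondrial translation 3 rose and 4 fell, beside 20.4% and 17.9% of all tested genes. GFM2, the factor that recycles mitochondrial ribosomes, fell from 21.6, 20.2 and 20.3 FPKM to 12.5, 11.9 and 10.3 FPKM (log2 fold change −0.82, SE 0.0705, limma adjusted p = 1.8e-04). MTIF2, the initiation factor, fell from 20.7, 21.2 and 21.7 FPKM to 15.1, 16.6 and 15.3 FPKM (−0.43, limma adjusted p = 4.1e-04), and the release factor MTRF1L fell 14.7% (limma adjusted p = 0.011). GUF1, which encodes a mitochondrial relative of the elongation factor LepA, rose 1.30-fold (0.36, limma adjusted p = 3.0e-04), and the elongation factor TUFM rose 1.16-fold (limma adjusted p = 0.0045). None of these 5 calls was lost under the 18 alternatives.

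Of 22 genes for charging mitochondrial tRNAs, most but not all of them ligases, 7 rose and 1 fell by limma. Of all tested genes 20.4% were higher and 17.9% lower. The risers include KARS1 (log2 fold change 0.19, limma adjusted p = 0.0031), which also makes the cytosolic enzyme. WARS2, the ligase for tryptophan, rose 1.40-fold (log2 fold change 0.44, limma adjusted p = 9.8e-04) and AARS2, for alanine, 1.29-fold (0.35, limma adjusted p = 0.0011). In the list of regulators of mitochondrial biogenesis 9 of 10 genes were tested, and 6 of them rose, beside 20.4% of all tested genes. By limma 0 were lower, also at an unadjusted p under 0.05. Several of these calls were fragile. The PPRC1 call was lost under 12 of 18 alternatives, the TFEB call under 8 of 17 and the PPARGC1B call under 5 of 17. TFEB (0.54 FPKM) and PPARGC1B (0.71 FPKM in the scramble group) also lay near the filter. GABPB1, a subunit of nuclear respiratory factor 2, rose from 3.85, 3.78 and 3.91 FPKM to 5.25, 5.21 and 5.18 FPKM (0.39, limma adjusted p = 5.0e-04), and the nuclear receptor ESRRA rose 1.14-fold (0.18, limma adjusted p = 0.0093, or 0.076 when scaled to the mitochondrial sum).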
